A study of Homo sapiens with 6 samples.

Results

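Collagens, laminins and fibronectin, the main structural proteins of the extracellular matrix, were followed through 3 human hepatocellular carcinoma cell lines in ribosome-bound and whole-cell mRNA. The members were chosen by gene symbol: the rows named as collagen chains (COL, a type number, A and a chain number), the rows named as laminin chains (LAMA, LAMB or LAMC and a number), and FN1. They came to 56 of the 19089 genes of the tables: 43 collagen genes, 12 laminin genes and FN1. HCCLM3 and MHCC97H, lines of high metastatic capacity, descend from the same parental line and so are not independent samples. Both were kept in DMEM with 10% fetal bovine serum. Hep3B, the line they are set against, was kept in MEM that held sodium pyruvate and 15% fetal bovine serum, and differences due to line and to medium cannot be told apart. All 3 lines had penicillin, streptomycin and ciprofloxacin in the medium. From each line, 1 library was made of polyadenylated mRNA purified with translating ribosomes and their nascent chains (RNC-mRNA), and 1 of the polyadenylated mRNA of the whole cell (mRNA). Every library was a pool of 3 cultures, so no comparison between lines, or between fractions within a line, had a replicate check.

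Collagens are secreted proteins of interwound chains that form fibrils, networks, beaded filaments or membrane anchors, according to type. Laminins are cross-shaped assemblies of an alpha, a beta and a gamma chain and form the sheet of the basement membrane together with collagen IV. Fibronectin is a large secreted glycoprotein that links cells, through integrins, to collagens and other matrix, and hepatocytes are the source of its soluble form in plasma. In liver, the fibrillar collagens are known as products of stellate cells and fibroblasts more than of hepatocytes.

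The gene tables held 141095635, 144209109 and 147788269 reads in the RNC-mRNA libraries of HCCLM3, MHCC97H and Hep3B, and 119888529, 132684373 and 119086844 in their mRNA libraries. Levels are given as RPKM, reads scaled by gene-model length and by library total, which allows levels of different genes to be set side by side. Markers of stellate cells and fibroblasts (12 genes) summed to 1.62 RPKM in HCCLM3, 1.97 in MHCC97H and 13.1 in Hep3B RNC-mRNA, and to 3.35 RPKM in HCCLM3, 3.34 in MHCC97H and 14.6 in Hep3B mRNA, led by LUM in HCCLM3 and MHCC97H and by PDGFRB in Hep3B. Between 0 and 3 of these markers were listed at 0 in a library, and between 0 and 2 reached 1 RPKM. The 11 endothelial markers found summed to between 3.99 and 10.2 RPKM in HCCLM3 and MHCC97H and to at most 1.38 RPKM in Hep3B, and the leukocyte markers to between 48.8 and 87.6 RPKM, of which CD68 gave 46.0 to 81.6. The 12 hepatocyte markers summed to between 23.4 and 58.3 RPKM in HCCLM3 and MHCC97H against 15857 and 27024 in Hep3B. In mRNA 10 of the 11 compared were at least 4-fold lower in both lines than in Hep3B (8.90% of all genes). Of the 12, 5 reached 1 RPKM in HCCLM3 mRNA and 8 in MHCC97H mRNA, against 11 in Hep3B mRNA. The highest were HNF4A in HCCLM3 and FGB in MHCC97H. HNF4A stood at 11.1 to 12.4 RPKM in HCCLM3 and MHCC97H, against 94.9 and 96.2 RPKM in Hep3B, and FGB was higher in MHCC97H than in Hep3B RNC-mRNA, at 14.6 RPKM against 10.6 RPKM. The part of admixed cells in the matrix levels was not tested. In bulk libraries, fewer cells expressing a gene and less RNA per cell cannot be told apart.

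Of the 56 genes, 25 reached 1 RPKM in at least 1 library (16 collagens, 8 laminins and FN1) and 13 reached 10 RPKM. In RNC-mRNA 16 reached 1 RPKM in HCCLM3, 17 in MHCC97H and 13 in Hep3B. In mRNA 22 did in HCCLM3, 19 in MHCC97H and 18 in Hep3B. There were 10 genes, COL18A1, COL27A1, COL5A2, FN1, LAMA4, LAMA5, LAMB1, LAMB2, LAMB3 and LAMC1, at 1 RPKM or more in all 6 libraries. In RefSeq, FN1, COL18A1, COL9A3, COL4A4 and COL10A1 overlap another gene of the tables (ATIC, SLC19A1, TCFL5, RHBDD1 and NT5DC1), and the sources used here do not say whether counting used strand, so reads of these genes may be shared. All intervals given cover counting error only. The plot of levels shows 24 of the 25 genes and the wide gap of a few of them between Hep3B and the other lines.

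**Figure D1:**
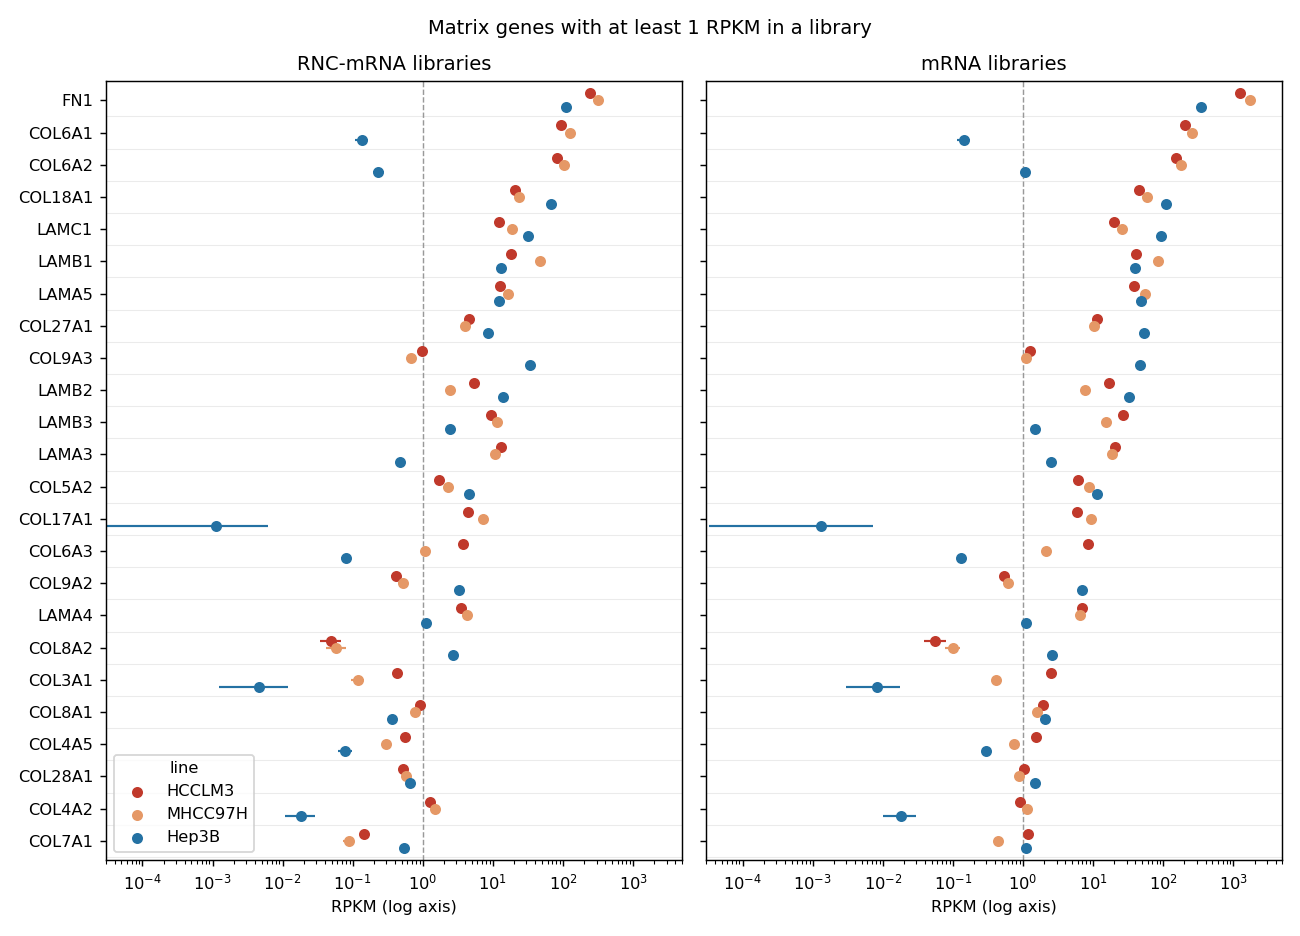
Level of 24 of the 25 members with at least 1 RPKM in a library, in RPKM on a log axis, in RNC-mRNA (left) and mRNA (right); points are single libraries and bars the exact 95% Poisson interval of the read count. FN1 is the highest in every library, and COL17A1 and COL6A1 have the widest gaps between Hep3B and the other lines.

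Fibronectin led the group in every library. FN1 stood at 243 RPKM in HCCLM3, 311 RPKM in MHCC97H and 111 RPKM in Hep3B RNC-mRNA. In mRNA the level was 1234 RPKM in HCCLM3, 1694 RPKM in MHCC97H and 345 RPKM in Hep3B. FN1 was thus high in all 3 lines, higher in HCCLM3 and MHCC97H than in Hep3B in both fractions, and lower in RNC-mRNA than in mRNA of each line. By RPKM it ranked 18 among all genes in HCCLM3, 13 in MHCC97H and 88 in Hep3B mRNA, and 247 in HCCLM3, 171 in MHCC97H and 559 in Hep3B RNC-mRNA. Ranked by reads, which favours long genes such as this one of 9.17 kb, it was the first of all genes in HCCLM3 and MHCC97H mRNA and number 12 in Hep3B mRNA. In RNC-mRNA it ranked 22 by reads in HCCLM3, 14 in MHCC97H and 66 in Hep3B. The log2 ratio of (RPKM + 0.1) over Hep3B was 1.84 for HCCLM3 and 2.30 for MHCC97H in mRNA, and 1.13 for HCCLM3 and 1.48 for MHCC97H in RNC-mRNA.

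The promoter window of FN1 is shown because FN1 is the most abundant gene of the group. Windows run from 250 bases before to 50 bases after the annotated start, on GRCh38.p14 of RefSeq, and 41 of the members had a window, 55 windows in all. They were searched on both strands for 6 motifs: GGGCGG (GC box), CCAAT, TGACGTCA (cAMP response element), TGANTCA (AP-1 site), TATAAA and CCCTCCCC (CTC box). The FN1 window lies at chr2:215436019-215436318 on the minus strand, with TGACGTCA and CCAAT in capitals:
FN1: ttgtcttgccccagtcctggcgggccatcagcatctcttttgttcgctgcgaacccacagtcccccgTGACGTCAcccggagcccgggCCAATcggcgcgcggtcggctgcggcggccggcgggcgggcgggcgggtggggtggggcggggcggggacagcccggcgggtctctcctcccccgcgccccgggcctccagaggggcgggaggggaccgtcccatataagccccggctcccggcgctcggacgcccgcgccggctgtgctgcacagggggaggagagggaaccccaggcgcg
TGACGTCA was found in 1.85% of all 35116 windows of the table and, among the members, in FN1 alone. CCAAT was found in 34.6% of all windows and in 17 of the 55 member windows (30.9%), of 15 members. The window also held 6 matches to GGGCGG, a motif of 45.0% of all windows and of 33 of the 55 member windows (60%), of 28 members. A match is a description of these letters and not a binding site.

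The chains of collagen VI, which builds beaded microfilaments around cells, were far apart between the lines, and COL6A1 had the largest log2 ratios of (RPKM + 0.1) over Hep3B among the members. As a plain RPKM ratio COL17A1 was further apart, with 1 read in each Hep3B library. COL6A1 and COL6A2 were the most abundant collagen genes of HCCLM3 and MHCC97H and were low in Hep3B. COL6A1 stood at 93.5 RPKM in HCCLM3, 125 RPKM in MHCC97H and 0.135 RPKM in Hep3B RNC-mRNA, and at 207 RPKM in HCCLM3, 259.6 RPKM in MHCC97H and 0.142 RPKM in Hep3B mRNA. COL6A2 stood at 82.1 RPKM in HCCLM3, 103 RPKM in MHCC97H and 0.232 RPKM in Hep3B RNC-mRNA, and at 151 RPKM in HCCLM3, 178 RPKM in MHCC97H and 1.06 RPKM in Hep3B mRNA. The genes are neighbours on chromosome 21, and in each of the 4 libraries of HCCLM3 and MHCC97H COL6A1 was the higher of the pair, with RPKM ratios of COL6A1 over COL6A2 between 1.14 and 1.46. In Hep3B the order was the reverse, at 0.583 in RNC-mRNA (90 reads against 126) and 0.134 in mRNA (80 reads against 489). The plain RPKM ratio of COL6A1 over Hep3B was 1455 in HCCLM3 mRNA, with an exact 95% counting interval of 1169 to 1835, and 1826 in MHCC97H mRNA, with an interval of 1467 to 2303.

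COL6A3, the long chain that completes the collagen VI molecule, was present at a far lower level. It stood at 3.70 RPKM in HCCLM3, 1.07 RPKM in MHCC97H and 0.0805 RPKM in Hep3B RNC-mRNA, and at 8.49 RPKM in HCCLM3, 2.14 RPKM in MHCC97H and 0.131 RPKM in Hep3B mRNA. Unlike COL6A1 and COL6A2, it was higher in HCCLM3 than in MHCC97H, with log2 ratios of 1.70 in RNC-mRNA and 1.94 in mRNA, against -0.41 in RNC-mRNA and -0.33 in mRNA for COL6A1. Per length, the COL6A3 level was 0.0410 of the COL6A1 level in HCCLM3 mRNA and 0.00824 of it in MHCC97H mRNA. COL6A5 and COL6A6, the alternative long chains, reached at most 0.00138 and 0.00865 RPKM.

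Summed over the 43 collagen genes, collagen VI took 82.7% of the RPKM in HCCLM3, 84.1% in MHCC97H and 0.366% in Hep3B RNC-mRNA, and 81.7% in HCCLM3, 82.0% in MHCC97H and 0.562% in Hep3B mRNA. In Hep3B the leading class was the multiplexins, through COL18A1, with 54.7% in RNC-mRNA and 45.9% in mRNA, against 8.71 to 10.9% in the libraries of HCCLM3 and MHCC97H. The FACIT collagens, which attach to the surface of fibrils, made up 30.4% of the Hep3B RNC-mRNA sum and 22.7% of the Hep3B mRNA sum, against at most 0.835% in the other libraries. The summed collagen level itself was 448 RPKM in HCCLM3, 536 RPKM in MHCC97H and 239 RPKM in Hep3B mRNA, and that of the 12 laminin genes 172 RPKM in HCCLM3, 214 RPKM in MHCC97H and 217 RPKM in Hep3B mRNA.

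**Figure D2:**
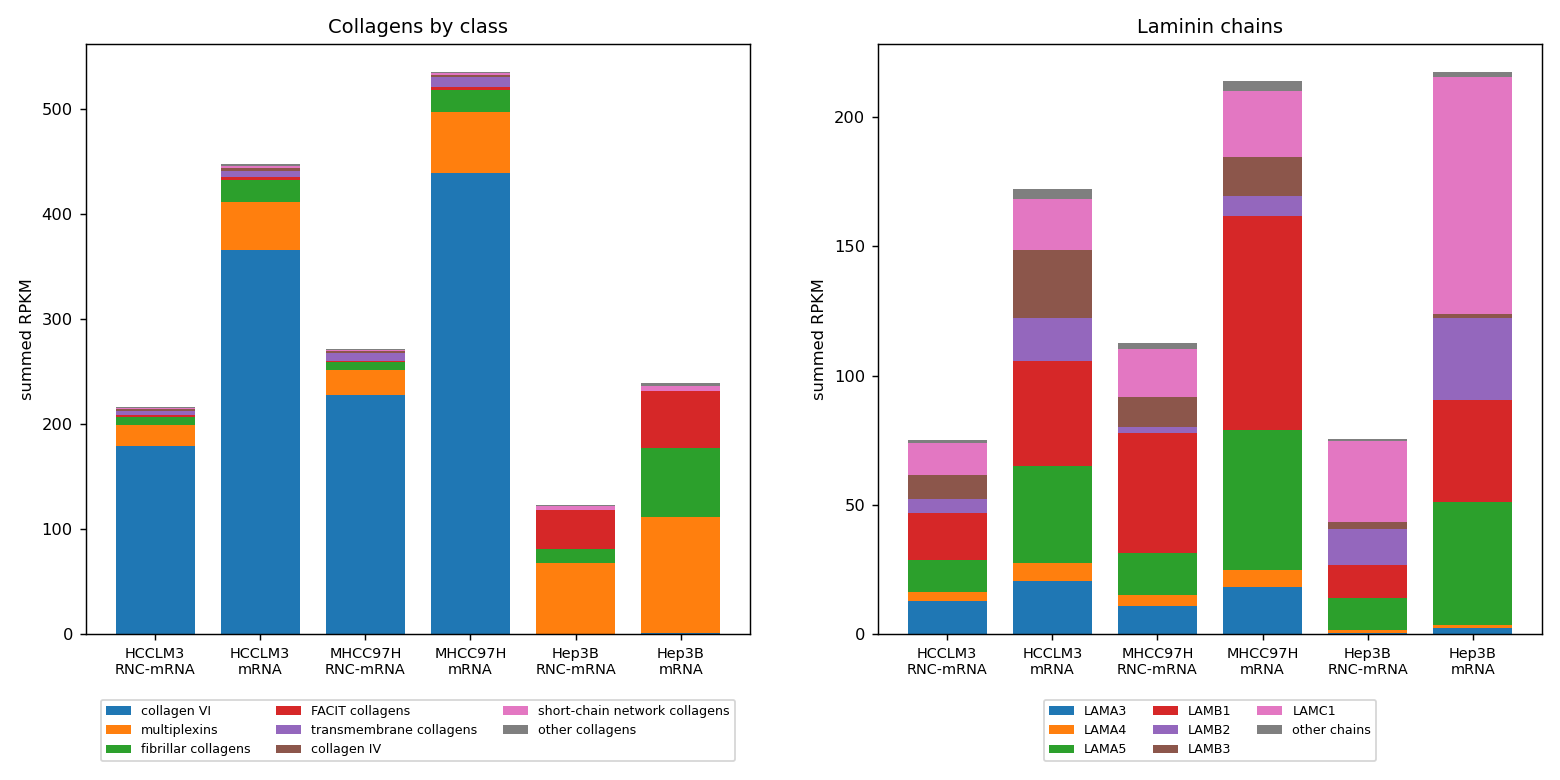
Summed RPKM of the collagen classes (left) and of the laminin chains (right) in each of the 6 libraries, 1 bar per library. Collagen VI fills 81.7 to 84.1% of the collagen bars of HCCLM3 and MHCC97H. It fills under 1% of those of Hep3B, where COL18A1 of the multiplexins leads. Among laminins, LAMB1 is the largest share in HCCLM3 and MHCC97H and LAMC1 in Hep3B.

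COL17A1, COL4A2 and COL3A1 were also near or below detection in Hep3B. COL17A1 encodes the transmembrane collagen of hemidesmosomes, the junctions that fix epithelial cells to laminin. Its level was 4.42 RPKM in HCCLM3, 7.27 RPKM in MHCC97H and 0.00111 RPKM in Hep3B RNC-mRNA, and 5.90 RPKM in HCCLM3, 9.31 RPKM in MHCC97H and 0.00131 RPKM in Hep3B mRNA. The Hep3B values rest on 1 read in each fraction, against 3740 to 7620 reads in the 4 other libraries. The RPKM ratio over Hep3B in mRNA was 4491 for HCCLM3 (exact 95% counting interval 806 to 177423) and 7086 for MHCC97H (1271 to 279933).

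COL4A2 and COL4A1 encode the chains of the common basement membrane collagen and lie head to head on chromosome 13, and they did not go together in these lines. COL4A2 had 1190 reads in HCCLM3, 1393 in MHCC97H and 18 in Hep3B RNC-mRNA, and 736 in HCCLM3, 1003 in MHCC97H and 15 in Hep3B mRNA, which gave levels of 0.0180 to 1.47 RPKM. COL4A1 had 7 reads in HCCLM3, 6 in MHCC97H and 43 in Hep3B RNC-mRNA, and 8 in HCCLM3, 7 in MHCC97H and 60 in Hep3B mRNA. COL4A2 was thus higher in HCCLM3 and MHCC97H and COL4A1 in Hep3B, and COL4A1 was under 0.1 RPKM throughout. Per length, the ratio of COL4A2 over COL4A1 was 95.6 in HCCLM3 mRNA (95% counting interval 47.6 to 192) and 149 in MHCC97H mRNA (70.8 to 313), against 0.260 in Hep3B mRNA (0.147 to 0.457). COL4A5, the chain affected in hereditary nephritis, stood at 0.563 RPKM in HCCLM3, 0.296 RPKM in MHCC97H and 0.0775 RPKM in Hep3B RNC-mRNA, and at 1.51 RPKM in HCCLM3, 0.732 RPKM in MHCC97H and 0.294 RPKM in Hep3B mRNA.

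The window between the pair is shown because the genes share it. The annotated starts of COL4A1 and COL4A2 are 127 bases apart on opposite strands, and their windows have 226 of 300 bases in common, identical as reverse complements. The COL4A2 window lies at chr13:110307034-110307333 on the plus strand, with CCAAT, CCCTCCCC and GGGCGG in capitals:
COL4A2: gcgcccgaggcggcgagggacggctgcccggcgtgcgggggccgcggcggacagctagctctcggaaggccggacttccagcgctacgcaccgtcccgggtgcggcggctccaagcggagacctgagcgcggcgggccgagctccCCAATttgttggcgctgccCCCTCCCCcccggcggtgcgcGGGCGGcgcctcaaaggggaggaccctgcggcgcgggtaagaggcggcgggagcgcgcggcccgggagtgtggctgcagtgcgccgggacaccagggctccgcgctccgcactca
These capitals read as CCAAT, CCCTCCCC and GGGCGG on the COL4A2 strand and are part of the COL4A1 window on the other strand. CCCTCCCC was found in 13.6% of all windows and in 14 of the 55 member windows (25.5%), of 13 members. The same letters thus precede a gene at about 1 RPKM and a gene with under 10 reads in HCCLM3 and MHCC97H.

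COL3A1, a fibrillar collagen of soft connective tissue, was the gene that set HCCLM3 apart from MHCC97H in mRNA. It stood at 0.424 RPKM in HCCLM3, 0.117 RPKM in MHCC97H and 0.00459 RPKM in Hep3B RNC-mRNA, and at 2.49 RPKM in HCCLM3, 0.408 RPKM in MHCC97H and 0.00815 RPKM in Hep3B mRNA. The log2 ratio of (RPKM + 0.1) of HCCLM3 over MHCC97H was 2.35 in mRNA and 1.27 in RNC-mRNA. With a pseudocount of 1 RPKM the mRNA ratio no longer reached 4-fold. COL5A2, its neighbour on chromosome 2 and a chain of the collagen that limits fibril width, did not share that order. COL5A2 stood at 1.70 RPKM in HCCLM3, 2.27 RPKM in MHCC97H and 4.60 RPKM in Hep3B RNC-mRNA, and at 6.09 RPKM in HCCLM3, 8.65 RPKM in MHCC97H and 11.3 RPKM in Hep3B mRNA. Its partner chain COL5A1 had at most 0.0868 RPKM, and the collagen I genes COL1A1 and COL1A2 at most 0.567 and 0.108 RPKM.

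Hep3B was the highest line for another set of collagens. COL18A1 encodes a basement membrane collagen with sugar side chains from which endostatin is cut, and is known to be expressed by hepatocytes. It stood at 20.5 RPKM in HCCLM3, 23.6 RPKM in MHCC97H and 67.3 RPKM in Hep3B RNC-mRNA, and at 45.2 RPKM in HCCLM3, 58.5 RPKM in MHCC97H and 110.0 RPKM in Hep3B mRNA. COL9A3 and COL9A2, chains of a FACIT collagen known from cartilage, were separated further. COL9A3 stood at 0.963 RPKM in HCCLM3, 0.676 RPKM in MHCC97H and 33.7 RPKM in Hep3B RNC-mRNA, and at 1.27 RPKM in HCCLM3, 1.11 RPKM in MHCC97H and 46.3 RPKM in Hep3B mRNA. COL9A2 stood at 0.411 RPKM in HCCLM3, 0.513 RPKM in MHCC97H and 3.31 RPKM in Hep3B RNC-mRNA, and at 0.538 RPKM in HCCLM3, 0.599 RPKM in MHCC97H and 6.92 RPKM in Hep3B mRNA. Hep3B was thus the high line for both chains in both fractions, whereas COL9A1, the chain that would complete the molecule, was at most 0.344 RPKM in any library.

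COL27A1, a fibrillar collagen of cartilage, stood at 4.61 RPKM in HCCLM3, 4.01 RPKM in MHCC97H and 8.53 RPKM in Hep3B RNC-mRNA, and at 11.4 RPKM in HCCLM3, 10.2 RPKM in MHCC97H and 53.5 RPKM in Hep3B mRNA. Its gap between the lines was narrower in RNC-mRNA (log2 ratio over Hep3B of -0.87 in HCCLM3 and -1.07 in MHCC97H) than in mRNA (-2.22 in HCCLM3 and -2.37 in MHCC97H). COL8A2, a chain of a short network-forming collagen, stood at 0.0494 RPKM in HCCLM3, 0.0583 RPKM in MHCC97H and 2.67 RPKM in Hep3B RNC-mRNA, and at 0.0560 RPKM in HCCLM3, 0.0990 RPKM in MHCC97H and 2.56 RPKM in Hep3B mRNA. It was low in HCCLM3 and MHCC97H and above 1 RPKM in Hep3B. Its partner COL8A1 stood at 0.897 RPKM in HCCLM3, 0.773 RPKM in MHCC97H and 0.364 RPKM in Hep3B RNC-mRNA, and at 1.93 RPKM in HCCLM3, 1.57 RPKM in MHCC97H and 2.03 RPKM in Hep3B mRNA, so that per length the ratio of COL8A1 over COL8A2 was 34.5 in HCCLM3, 15.9 in MHCC97H and 0.792 in Hep3B mRNA.

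COL28A1 and COL7A1, the gene of the anchoring fibrils of skin, completed the 16 collagens. COL28A1 lay between 0.518 and 1.49 RPKM over the 6 libraries, and COL7A1 between 0.0880 and 1.18 RPKM. The 27 collagens that never reached 1 RPKM were at most 0.627 RPKM, the level of COL5A3 in MHCC97H mRNA. They were COL1A1, COL1A2, COL2A1, COL4A1, COL4A3, COL4A4, COL4A6, COL5A1, COL5A3, COL6A5, COL6A6, COL9A1, COL10A1, COL11A1, COL11A2, COL12A1, COL13A1, COL14A1, COL15A1, COL16A1, COL19A1, COL20A1, COL21A1, COL22A1, COL23A1, COL24A1 and COL25A1.

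Among laminin alpha chains, LAMA5 was shared by the lines and LAMA3 was not. LAMA5, the broad epithelial and vascular alpha chain, stood at 12.4 RPKM in HCCLM3, 16.4 RPKM in MHCC97H and 12.3 RPKM in Hep3B RNC-mRNA, and at 37.7 RPKM in HCCLM3, 54.0 RPKM in MHCC97H and 47.6 RPKM in Hep3B mRNA. LAMA3, the alpha chain of the epithelial laminin that hemidesmosomes bind, stood at 12.9 RPKM in HCCLM3, 10.8 RPKM in MHCC97H and 0.480 RPKM in Hep3B RNC-mRNA, and at 20.6 RPKM in HCCLM3, 18.3 RPKM in MHCC97H and 2.50 RPKM in Hep3B mRNA. LAMA4, known from vessels and mesenchyme, stood at 3.45 RPKM in HCCLM3, 4.25 RPKM in MHCC97H and 1.10 RPKM in Hep3B RNC-mRNA, and at 6.90 RPKM in HCCLM3, 6.47 RPKM in MHCC97H and 1.11 RPKM in Hep3B mRNA. LAMA3 and LAMA4 were higher in HCCLM3 and MHCC97H than in Hep3B in both fractions. LAMA5 made up 57.3% of the alpha chain RPKM in HCCLM3, 68.1% in MHCC97H and 92.4% in Hep3B mRNA, and LAMA1 and LAMA2 were at most 0.446 and 0.11 RPKM.

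Among beta chains the lines differed in kind. LAMB1, the general beta chain, stood at 18.0 RPKM in HCCLM3, 46.4 RPKM in MHCC97H and 13.1 RPKM in Hep3B RNC-mRNA, and at 40.3 RPKM in HCCLM3, 83.0 RPKM in MHCC97H and 39.2 RPKM in Hep3B mRNA. LAMB2, its counterpart in muscle and kidney basement membranes, stood at 5.42 RPKM in HCCLM3, 2.40 RPKM in MHCC97H and 13.9 RPKM in Hep3B RNC-mRNA, and at 16.7 RPKM in HCCLM3, 7.58 RPKM in MHCC97H and 31.9 RPKM in Hep3B mRNA. MHCC97H was the highest line for LAMB1 and the lowest for LAMB2, and per length the ratio of LAMB1 over LAMB2 in mRNA was 2.41 in HCCLM3, 11.0 in MHCC97H and 1.23 in Hep3B. LAMB3, the beta chain that pairs with LAMA3, stood at 9.47 RPKM in HCCLM3, 11.5 RPKM in MHCC97H and 2.44 RPKM in Hep3B RNC-mRNA, and at 26.2 RPKM in HCCLM3, 15.2 RPKM in MHCC97H and 1.49 RPKM in Hep3B mRNA. LAMB4 was at most 0.693 RPKM.

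Among gamma chains LAMC1, the general one, was highest in Hep3B. It stood at 12.2 RPKM in HCCLM3, 18.5 RPKM in MHCC97H and 31.4 RPKM in Hep3B RNC-mRNA, and at 19.7 RPKM in HCCLM3, 25.3 RPKM in MHCC97H and 91.8 RPKM in Hep3B mRNA. In both fractions LAMC1, like LAMB2, thus had its highest value in Hep3B, where LAMB1 had its lowest. In mRNA, however, LAMB1 was nearly level between Hep3B and HCCLM3, at 39.2 RPKM and 40.3 RPKM. LAMC3 was at most 0.0941 RPKM.

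The windows of LAMA3 and LAMB3 are shown because these genes were high in the same lines and their windows hold the AP-1 letters TGANTCA, in capitals. For LAMA3 it lies at chr18:23872770-23873069 on the plus strand, and for LAMB3, which had 3 windows, the one with the match lies at chr1:209651325-209651624 on the minus strand:
LAMA3: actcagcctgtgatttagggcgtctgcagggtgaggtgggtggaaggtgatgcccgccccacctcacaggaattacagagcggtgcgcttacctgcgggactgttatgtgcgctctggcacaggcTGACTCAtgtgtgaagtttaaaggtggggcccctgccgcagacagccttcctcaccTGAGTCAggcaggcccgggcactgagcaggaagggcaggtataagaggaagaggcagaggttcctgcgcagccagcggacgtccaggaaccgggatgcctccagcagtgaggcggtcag
LAMB3: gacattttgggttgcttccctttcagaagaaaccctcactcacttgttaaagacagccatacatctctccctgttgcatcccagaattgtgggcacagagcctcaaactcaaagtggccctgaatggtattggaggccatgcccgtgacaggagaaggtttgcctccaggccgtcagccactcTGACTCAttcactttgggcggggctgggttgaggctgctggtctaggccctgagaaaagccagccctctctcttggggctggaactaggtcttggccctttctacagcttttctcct
Counting the annotated start as 0, the matches began at positions -125 and -69 in LAMA3 and at -67 in LAMB3. TGANTCA was found in 7.71% of all windows and in 3 of the 55 member windows (5.45%), of LAMA3, LAMB3 and COL10A1. COL17A1, COL6A2 and LAMA4, also higher in HCCLM3 and MHCC97H than in Hep3B mRNA, had windows without a match. A link between these letters and the levels was not tested. COL10A1 was at most 0.0474 RPKM in any library.

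Set against Hep3B, more of these genes were higher in HCCLM3 and MHCC97H than were lower. COL6A1, COL6A2, COL6A3, COL17A1 and LAMA3 were those at least 4-fold higher in both lines and both fractions. A gene was counted as higher or lower when the ratio of (RPKM + 0.1) was at least 4 in that direction and the higher library reached 1 RPKM. In mRNA, 9 of the 24 members at 1 RPKM in a library of the pair were higher in HCCLM3 than in Hep3B, where 8.50% of all such genes were, and 5 were lower, where 9.92% of all genes were. For MHCC97H over Hep3B, 9 of 23 members were higher (8.16% of all genes) and 5 lower (9.44%). In RNC-mRNA, 6 of 19 members were higher in HCCLM3 than in Hep3B (11.1% of all genes) and 3 lower (9.74%). For MHCC97H over Hep3B in RNC-mRNA, 8 of 20 members were higher (11.0%) and 4 lower (9.55%). The median log2 ratio of the members in mRNA was 0.06 for HCCLM3 and 0.18 for MHCC97H over Hep3B, against -0.03 for HCCLM3 and -0.01 for MHCC97H over all genes, while single members lay between -5.26 and 10.07. In RNC-mRNA it was 0.46 for HCCLM3 and 1.65 for MHCC97H, against 0.25 and 0.26 over all genes. The comparisons share the Hep3B library, and HCCLM3 and MHCC97H share a parent.

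In both lines and both fractions, 5 of the 18 genes compared throughout were higher than in Hep3B (6.99% of all genes), namely COL6A1, COL6A2, COL6A3, COL17A1 and LAMA3. In mRNA LAMA4 and LAMB3 joined them, for 7 of 22 (7.33% of all genes), and in RNC-mRNA COL4A2, for 6 of 19 (9.82%). COL8A2, COL9A2 and COL9A3 were lower in both lines and both fractions, 3 of 18 (7.52% of all genes). COL27A1 was also lower in both lines in mRNA, for 4 of 22 (8.90%), whereas in RNC-mRNA the count was 3 of 19 (8.95%). FN1 at 4.91-fold in MHCC97H mRNA and 3.57-fold in HCCLM3 mRNA lay on either side of the limit. As deposited, the RNC-mRNA libraries of HCCLM3 and MHCC97H were shifted by a median log2 ratio of 0.24 and 0.25 over Hep3B across the 9662 genes at 1 RPKM in all libraries. After rescaling to that median 6 members were higher in each line and 3 in HCCLM3 and 4 in MHCC97H lower, and LAMA5, at 0.01 in HCCLM3 over Hep3B, took the value -0.23. With a pseudocount of 1 RPKM, 4 members were higher and 2 lower in MHCC97H than in Hep3B RNC-mRNA and 1 was lower in HCCLM3. The share of all genes was not counted after rescaling or with this pseudocount.

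**Figure D3:**
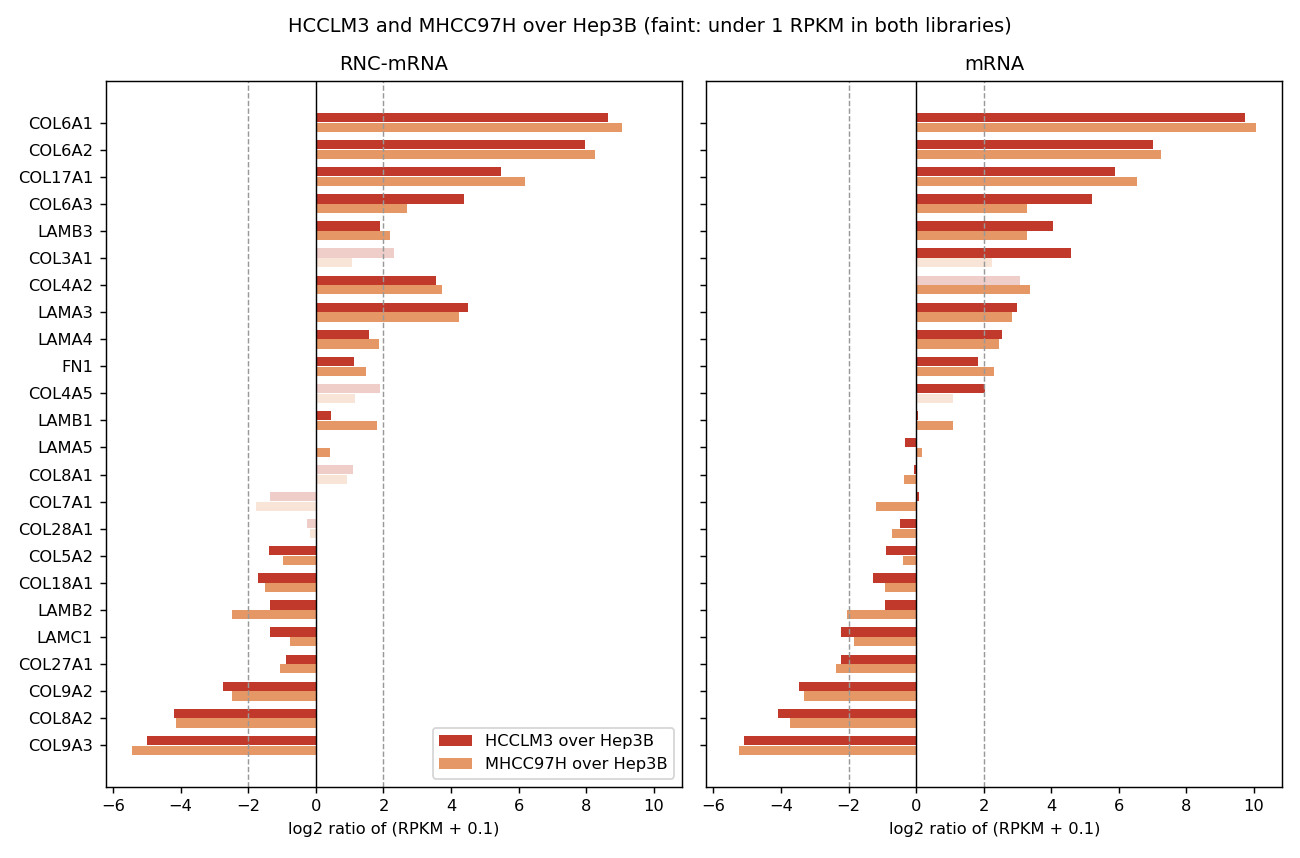
Log2 ratio of (RPKM + 0.1) of HCCLM3 over Hep3B and of MHCC97H over Hep3B for 24 of the 25 members with at least 1 RPKM in a library, in RNC-mRNA (left) and mRNA (right); dashed lines mark 4-fold. In mRNA COL6A1 reaches 9.74 in HCCLM3 and 10.07 in MHCC97H at the top, and COL9A3 is at -5.08 in HCCLM3 and -5.26 in MHCC97H at the bottom.

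Between HCCLM3 and MHCC97H few members differed. In mRNA COL3A1 was higher in HCCLM3 and no member lower among 23, where 0.222% of all genes were higher and 0.333% lower. In RNC-mRNA none of 17 members was higher or lower, where 0.325% and 0.369% of all genes were. Below the 4-fold limit, COL6A3, LAMB2 and LAMB1 had the next widest ratios among genes at 1 RPKM in both lines and both fractions. LAMB2 was higher in HCCLM3, with log2 ratios of 1.14 in RNC-mRNA and 1.13 in mRNA. LAMB1 was lower in HCCLM3, at -1.36 in RNC-mRNA and -1.04 in mRNA. LAMA4 and LAMB3 had opposite signs in the fractions, with LAMA4 at -0.30 in RNC-mRNA and 0.09 in mRNA and LAMB3 at -0.27 in RNC-mRNA and 0.78 in mRNA.

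The levels of these genes in RNC-mRNA were low relative to their levels in mRNA, more so than for most genes. In HCCLM3 each of the 15 members with at least 1 RPKM in both fractions had a lower RPKM in RNC-mRNA than in mRNA. Their median log2 ratio was -1.15, against 0.17 over all genes, of which 33.7% were below 0. COL4A2, left out in HCCLM3 because it had 0.902 RPKM in mRNA, had a log2 ratio of 0.47. COL3A1 and COL4A5, left out because they were under 1 RPKM in RNC-mRNA, stood at -2.30 and -1.28. In MHCC97H the RPKM in RNC-mRNA was lower for 16 of 17 members, with COL4A2 at 0.37 as the exception. The median was -0.84, against 0.16 over all genes, of which 35.9% were below 0. In Hep3B the RPKM in RNC-mRNA was lower for 11 of 13, the exceptions being LAMB3 at 0.68 and COL8A2 at 0.06. The median was -1.19, against -0.03 over all genes, of which 51.8% were below 0. COL8A2 lay within its counting error of 0.10, and LAMA4 at -0.01 lay within its counting error of 0.12 and took the value 0.08 after rescaling. The libraries name the fractions by a letter, read here as RNC-mRNA and mRNA from the titles. With the letters the other way round, each of these ratios would take the opposite sign.

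By a limit of 2-fold, 10 of 15 members were lower in RNC-mRNA than in mRNA of HCCLM3 (2.47% of all genes) and none higher (0.842%). In MHCC97H 7 of 17 were lower (2.68% of all genes) and none higher (0.464%), and in Hep3B 8 of 13 were lower (7.73%) and none higher (1.89%). Among the members compared, FN1 had the lowest ratio in HCCLM3 and MHCC97H, with log2 ratios of -2.34 in HCCLM3 and -2.45 in MHCC97H, and stood at -1.63 in Hep3B. COL27A1 had the lowest ratio in Hep3B, at -2.63, against -1.29 in HCCLM3 and -1.33 in MHCC97H. LAMA5 (-1.60 in HCCLM3, -1.71 in MHCC97H and -1.95 in Hep3B), COL5A2 (-1.78 in HCCLM3, -1.88 in MHCC97H and -1.28 in Hep3B) and LAMB2 (-1.60 in HCCLM3, -1.62 in MHCC97H and -1.19 in Hep3B) were more than 2-fold lower in all 3 lines. COL17A1, with -0.41 in HCCLM3 and -0.35 in MHCC97H, was among the members nearest to 0. LAMB3 differed most between the lines, at -1.46 in HCCLM3, -0.40 in MHCC97H and 0.68 in Hep3B.

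**Figure D4:**
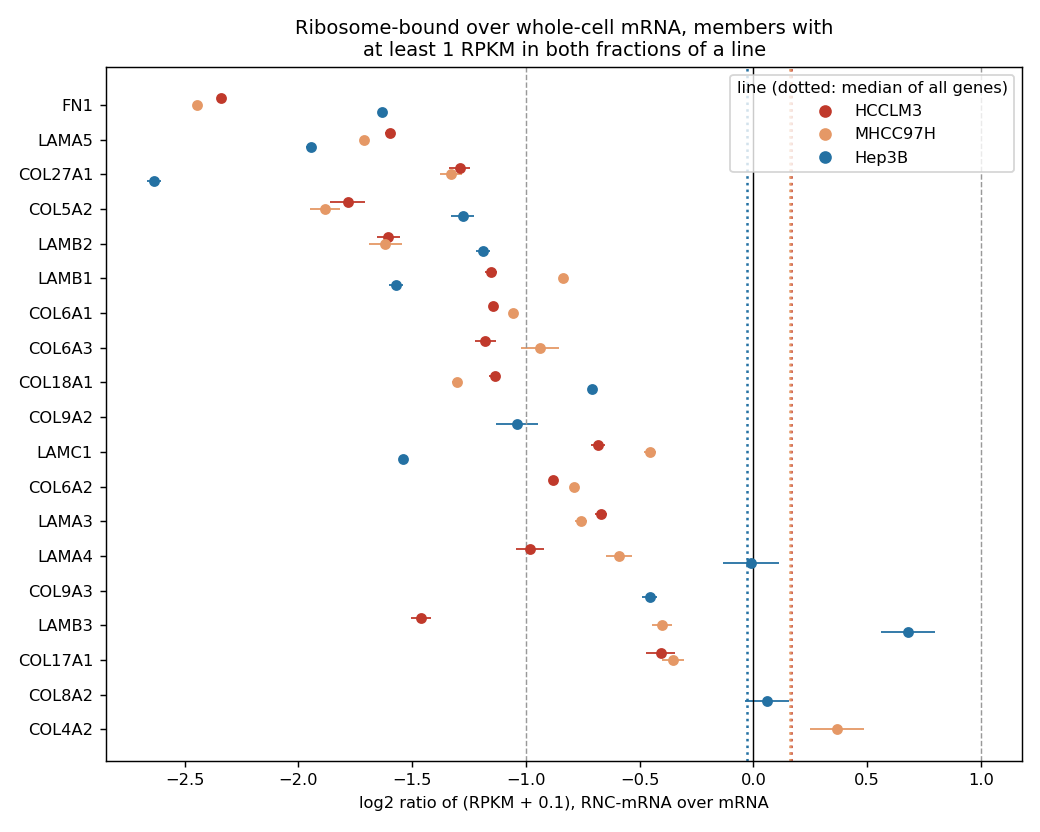
Log2 ratio of (RPKM + 0.1) of RNC-mRNA over mRNA for members with at least 1 RPKM in both fractions of a line, 1 member left out; bars are 95% counting intervals, dotted lines the medians of all genes and dashed lines 2-fold. In HCCLM3 no plotted point is above 0, in MHCC97H COL4A2 is and in Hep3B LAMB3 and COL8A2 are, with FN1 at -2.34 in HCCLM3, -2.45 in MHCC97H and -1.63 in Hep3B.

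Taking the 3 lines as replicates, with the line as a block, edgeR's quasi-likelihood test could be run on 11905 genes with a mean of at least 1 RPKM, 19 of them members. All 19 had a log2 ratio of RNC-mRNA over mRNA below 0, with a median of -1.23 against 0.04 over the 11905 genes, of which 46.1% were below 0. COL4A2 and COL8A2, which were above 0 in a line, had a mean under 1 RPKM and were not fitted. After Benjamini-Hochberg adjustment over all genes, edgeR's quasi-likelihood test called 4 members lower (2.65% of all genes) and 0 higher (0.0672%), while 17 of the 19 were lower at an unadjusted p below 0.05, as were 15.2% of all genes. The SE given is the size of the log2 ratio divided by the square root of the test's F statistic. LAMA5 was lower with a log2 ratio of -1.80 (SE 0.11, adjusted p = 0.0389 by edgeR). LAMB1 was lower with -1.23 (SE 0.14, adjusted p = 0.0410 by edgeR), LAMB2 with -1.53 (SE 0.19, adjusted p = 0.0442) and COL5A2 with -1.73 (SE 0.23, adjusted p = 0.0455). FN1 had a ratio of -2.18 (SE 0.31, adjusted p = 0.0510 by edgeR) and COL27A1 one of -1.80 (SE 0.27, adjusted p = 0.0541), and neither passed. COL6A1 at -0.88, LAMC1 at -0.93, LAMA4 at -0.58 and LAMB3 at -0.44 did not pass.

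The number called moved with the fit, for the members and for all genes. Without HCCLM3 edgeR called 3 members lower (1.00% of all genes) and without MHCC97H 9 (2.39%). Without Hep3B, which leaves the related pair, it called all 19 members fitted lower, where 33.6% of all genes were lower and 4187 of 11905 higher. DESeq2 called 14 members lower (10.9% of all genes), edgeR without the filter on low genes 15 (7.56%), and edgeR without the line block 0 members and 0 genes. The log2 ratio was below 0 for each of the 4 called members in each of these fits.

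Many of the members are long genes, and length went with the ratio in Hep3B. The members compared had a median gene-model length of 6.61 kb in HCCLM3 and 6.55 kb in MHCC97H and in Hep3B, against 3.29 kb in HCCLM3, 3.30 kb in MHCC97H and 3.27 kb in Hep3B for all genes compared. Over all genes, Pearson's r between log2 of length and log2 ratio was -0.04 in HCCLM3, -0.09 in MHCC97H and -0.48 in Hep3B. It was taken over 10930, 10987 and 10825 genes in the same order, and genes are not independent replicates. The median log2 ratio in Hep3B was 0.40 for genes under 2 kb and -0.85 for genes over 8 kb, against 0.22 and 0.11 in HCCLM3. The share of genes lower by the 2-fold limit in Hep3B also rose with length. Of members of 2 to 3 kb, 1 of 2 was lower (3.09% of all genes of that length). At 4 to 5 kb it was 0 of 2 (8.37%) and at 5 to 6 kb 2 of 2 (11.1%). At 6 to 8 kb it was 3 of 5 (15.9%) and above 8 kb 2 of 2 (38.9%). Compared with genes of like length, 15 of 15 members in HCCLM3, 16 of 17 in MHCC97H and 10 of 13 in Hep3B were below the median of their length class, with median log2 differences of -1.31 in HCCLM3, -0.96 in MHCC97H and -0.79 in Hep3B. FN1, of 9.17 kb, stood at percentile 0.186 of its length class in HCCLM3, 0.360 in MHCC97H and 12.4 in Hep3B. LAMB3, of 4.305 kb, stood at percentile 0.567 in HCCLM3, 15.7 in MHCC97H and 98.5 in Hep3B.

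**Figure D5:**
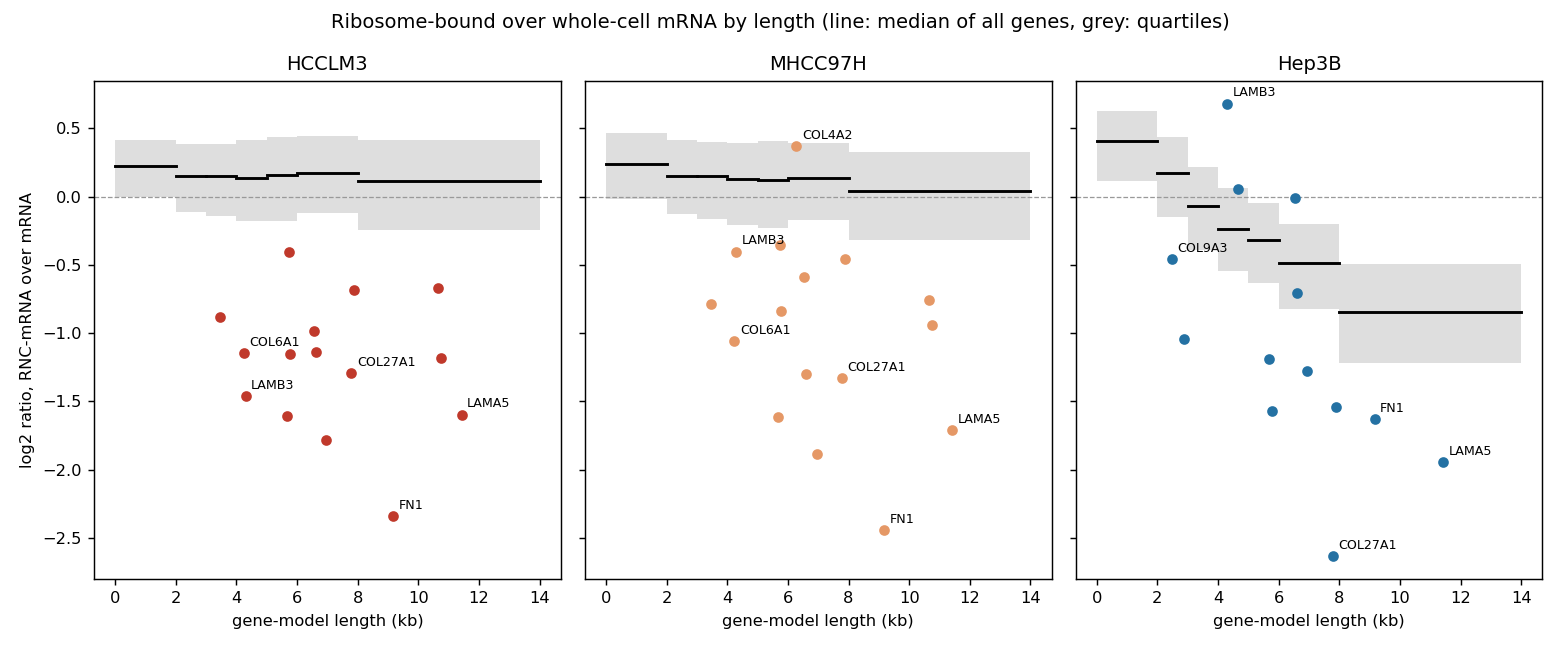
Log2 ratio of RNC-mRNA over mRNA of the members (points, 1 member left out) against gene-model length in kb, by line; the black line is the median of all genes in each length class and the grey band their quartiles. The black line stays between 0.04 and 0.24 in HCCLM3 and MHCC97H and falls to -0.85 above 8 kb in Hep3B, and most points lie below it.

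Genes that process, bind or accompany these proteins moved in both directions between the lines. Of 31 collagen-processing genes (hydroxylases, chaperones, proteinases and cross-linking enzymes) 25 were compared in both lines, and 4 were higher (7.33% of all genes) and 4 lower (8.90%) in both HCCLM3 and MHCC97H than in Hep3B mRNA by the 4-fold rule, with median log2 ratios of 0.22 for HCCLM3 and 0.15 for MHCC97H. The lysyl oxidase family, which cross-links collagen, was split. LOXL1 stood at 23.3 RPKM in HCCLM3, 28.6 RPKM in MHCC97H and 0.300 RPKM in Hep3B mRNA, and LOXL2 at 39.2 RPKM in HCCLM3, 21.2 RPKM in MHCC97H and 0.758 RPKM in Hep3B mRNA. LOXL4 was lower, at 0.805 RPKM in HCCLM3, 0.535 RPKM in MHCC97H and 33.0 RPKM in Hep3B mRNA. LEPREL2, a prolyl hydroxylase gene, stood at 0.124 RPKM in HCCLM3, 0.0999 RPKM in MHCC97H and 2.86 RPKM in Hep3B mRNA.

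Among partners in the basement membrane, more were lower than higher in HCCLM3 and MHCC97H. Of 16 genes, 11 were compared in both lines, and 1 was higher (7.33% of all genes) and 6 were lower (8.90%) in both lines than in Hep3B mRNA, with median log2 ratios of -2.97 for HCCLM3 and -2.39 for MHCC97H. FRAS1, a protein of the Fraser complex under epithelia, stood at 0.0148 RPKM in HCCLM3, 0.00617 RPKM in MHCC97H and 42.1 RPKM in Hep3B mRNA, and its partner FREM2 at 0.00776 RPKM in HCCLM3, 0.00235 RPKM in MHCC97H and 4.40 RPKM in Hep3B mRNA. SMOC1, a calcium-binding matrix protein, stood at 0.0903 RPKM in HCCLM3, 0.0860 RPKM in MHCC97H and 14.1 RPKM in Hep3B mRNA. NTN4, a laminin-binding netrin, was the higher one, at 24.6 RPKM in HCCLM3, 22.2 RPKM in MHCC97H and 1.73 RPKM in Hep3B mRNA. In the edgeR test over the 3 lines 2 of the 9 partners fitted were lower in RNC-mRNA (2.65% of all genes). They were AGRN and HSPG2, which encode the heparan sulfate proteoglycans agrin and perlecan. Of the other matrix lists, 0 of 23 collagen-processing genes, 0 of 17 matrix receptors and 1 of 10 interstitial matrix genes were called lower. AGRN stood at 42.4 RPKM in HCCLM3, 39.6 RPKM in MHCC97H and 22.5 RPKM in Hep3B RNC-mRNA, against 125 RPKM in HCCLM3, 119 RPKM in MHCC97H and 60.7 RPKM in Hep3B mRNA. HSPG2 stood at 5.22 RPKM in HCCLM3, 4.96 RPKM in MHCC97H and 10.9 RPKM in Hep3B RNC-mRNA, against 23.7 RPKM in HCCLM3, 27.9 RPKM in MHCC97H and 85.8 RPKM in Hep3B mRNA.

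Of 24 matrix receptor genes, 16 were compared in both lines, and 3 were higher (7.33% of all genes) and 2 lower (8.90%) in both than in Hep3B mRNA, with median log2 ratios of 0.15 for HCCLM3 and 0.61 for MHCC97H. CD44, the hyaluronan receptor, stood at 71.1 RPKM in HCCLM3, 72.3 RPKM in MHCC97H and 0.0181 RPKM in Hep3B mRNA. ITGA3, an integrin chain that binds the LAMA3 laminin, stood at 63.1 RPKM in HCCLM3, 80.3 RPKM in MHCC97H and 1.92 RPKM in Hep3B mRNA. The receptors lower in both lines were SDC2, a syndecan, at 0.0349 RPKM in HCCLM3, 0.0467 RPKM in MHCC97H and 42.5 RPKM in Hep3B mRNA, and ITGA1, a collagen-binding integrin chain, at 0.608 RPKM in HCCLM3, 2.09 RPKM in MHCC97H and 10.2 RPKM in Hep3B mRNA.

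Of 21 genes of the interstitial matrix found in the tables, 13 were compared in both lines, and 1 was higher (7.33% of all genes) and 6 lower (8.90%) in both than in Hep3B mRNA, with median log2 ratios of -1.63 for HCCLM3 and -2.17 for MHCC97H. BGN, the proteoglycan biglycan, stood at 0.317 RPKM in HCCLM3, 0.286 RPKM in MHCC97H and 88.9 RPKM in Hep3B mRNA. MFAP2, a microfibril protein, stood at 0.0325 RPKM in HCCLM3, 0.0443 RPKM in MHCC97H and 30.0 RPKM in Hep3B mRNA, and FBN2, a fibrillin, was listed at 0 in HCCLM3 and stood at 0.00189 RPKM in MHCC97H and 2.83 RPKM in Hep3B mRNA. TNC, which encodes tenascin-C, was the higher one, at 1.68 RPKM in HCCLM3, 1.63 RPKM in MHCC97H and 0.0306 RPKM in Hep3B mRNA.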

How the data were processed

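Members and gene lists were chosen with earlier results of these data known. Per the labels' protocols, libraries were prepared with an NEBNext mRNA kit, and per the design text each pooled 3 cultures. The submitters' processing notes name edgeR and hg19 without a role; aligner, counter and strand handling were not given in the sources used here. For every gene and library the authors deposited a read count and an RPKM value, these counts scaled by gene-model length and a library total of 129948939 to 157181586 reads. Recovered lengths lay within 8.9e-09 of whole numbers. A gene without reads has no line and was set to 0. Tables carry a letter: C was taken for RNC-mRNA because the titles of those samples hold a C, and A for mRNA as what was left.

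Ratios are log2 of (RPKM + 0.1), which understates changes of low genes. Lines were described by a 4-fold limit and a minimum of 1 RPKM in the higher library, fractions of a line by a 2-fold limit with at least 1 RPKM in both. With single libraries no p-value was computed. Over the 3 lines, RNC-mRNA was tested against mRNA by edgeR 4.0.16 in R 4.3.3, from the deposited counts (quasi-likelihood, TMM scaling, line as block, mean of at least 1 RPKM, Benjamini-Hochberg, threshold 0.05), checked on simulated counts. The block is natural, since both fractions come from 1 line. Its p-values measure the spread between 3 lines, of which a pair is related. Named were every member at 1 RPKM in a library and up to 4 genes per list with the largest ratio over Hep3B that met the limit in both lines. AGRN and HSPG2 were chosen after their values were seen. Alternatives were pseudocounts of 1 and 0.01 RPKM, no filter or a minimum of 5 RPKM, scaling by median ratio, DESeq2 1.42.0 and its size factors, no block, and leaving out each line. Gene positions came from RefSeq on GRCh38.p14, which differs from hg19, and served for names, neighbours and promoter windows. The values of 1 member are not reported here, though counts, sums and medians include it.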

Additional observations from a re-analysis of the deposited data

Results flagged for a closer look

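LAMB3 went against the other lines in Hep3B. Its log2 ratio of RNC-mRNA over mRNA was 0.68 in Hep3B, from 1654 reads in RNC-mRNA and 850 in mRNA, against -1.46 in HCCLM3 and -0.40 in MHCC97H. The difference between the lines was not tested, since each line has 1 library per fraction.

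LAMA4 and LAMB3 also had opposite signs in the fractions for HCCLM3 over MHCC97H. LAMA4 stood at -0.30 in RNC-mRNA and 0.09 in mRNA, and LAMB3 at -0.27 in RNC-mRNA and 0.78 in mRNA. These differences were not tested either.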

How the results depend on the processing

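With a pseudocount of 1 RPKM, 3 members were lower in MHCC97H than in Hep3B mRNA, 0 higher in HCCLM3 than in MHCC97H mRNA, 1 lower in HCCLM3 than in Hep3B RNC-mRNA, and 4 higher and 2 lower in MHCC97H than in Hep3B RNC-mRNA. With a filter at 5 RPKM, 0 were higher in HCCLM3 than in MHCC97H mRNA, 3 higher and 1 lower in HCCLM3 RNC-mRNA than in Hep3B RNC-mRNA, 5 higher and 2 lower in MHCC97H than in Hep3B RNC-mRNA, and 4 lower in RNC-mRNA than in mRNA of MHCC97H. Without a filter, 19 members were lower in RNC-mRNA than in mRNA of HCCLM3, 14 in MHCC97H and 17 in Hep3B, as more members enter. For these pseudocounts and filters the share of all genes was not counted. Whether the members moved more than all genes did is therefore not known. For the test over the 3 lines, edgeR without the filter called 15 members lower, and 431 genes higher and 1443 lower over all genes. DESeq2 called 14 members lower, and 662 genes higher and 1300 lower. Without the replicate block, edgeR called 0 members lower, 0 genes higher and 0 lower. Leaving out each line in turn gave 3 to 19 members lower, 3 to 4187 genes higher and 119 to 4005 lower, the highest counts coming without Hep3B, where the related pair remains. The cause of these differences was not tested. Without HCCLM3, the edgeR ratio of LAMB3 was 0.16 (adjusted p = 0.878), and leaving out each line gave 0.16 to -1.07, against -0.44 with all lines. The other counts of members stayed within 1.5 times under the alternatives run. No labels number replicates across groups; the line is the pairing. Depth limited COL17A1, COL3A1 and COL4A2 in Hep3B, with 1 to 18 reads.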
